A study of Mus musculus with 4 samples.

Results

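Integrins are the receptors by which cells hold on to the extracellular matrix and to each other, and the proteins of the focal adhesion tie their inner ends to actin. The RNA of 45 such genes was compared between visceral mesothelium, taken from the omentum, and parietal mesothelium, teased from the skeletal muscle of the body wall. The genes were chosen by name: all 26 integrin chains on the list, the integrin-like protein Itgbl1 and 18 focal adhesion proteins. Of these, 44 had a probe naming that gene alone and Ptk2 had none in the annotation used here, so the members made up 44 of 19938 measured genes. Where a gene had several probes, the brightest over the arrays was read.

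All mice were adult, untreated, of c57bl/6 background and of the genotype Wt1-cre;Rosa26ReYFP, in which Cre driven by the mesothelial gene Wt1 switches on a yellow fluorescent protein. That genotype was shared by both tissues. Each tissue had 2 arrays (Mouse Gene 1.0 ST, Affymetrix), called biological replicates in the labels. The animals behind each are not given, so the p-values speak only of the spread among the 4 arrays. RNA came from the freshly isolated tissue and no sorting of cells is described. By the fluorescent marker the study judged the isolated cells to be nearly all mesothelial. The values are RMA signals on the log2 scale, in which 1 unit is a doubling, and every difference below is visceral minus parietal mesothelium. The study asked whether the mesothelia that cover organs and line the body wall differ in their genes and in how they adhere and move.

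An integrin is a pair of 1 alpha and 1 beta chain, and the pairing sets the ligand. Pairs with beta2 or beta7 are largely the property of leukocytes, which use them to stop on vessel walls and to engulf opsonized particles. Other pairs bind collagens, laminins or the RGD sequence of fibronectin and vitronectin, and most of these share the beta1 chain. Inside the cell, talins and kindlins switch the beta tail on, the ILK, PINCH and parvin complex and vinculin strengthen the link to actin, and FAK, paxillin and p130Cas pass on signals. Mesothelium rests on a thin basement membrane and meets laminin, collagen IV and fibronectin there.

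Integrin chains were called in both directions, 9 of 26 of them, and 2 of 17 focal adhesion proteins were called, which was not tested as a difference between the groups. A gene was called where limma gave a Benjamini-Hochberg adjusted p below 0.05 over all genes together with a change of 1.5-fold or more. By this rule 12 of 44 members were called (27.3%), 4 toward visceral and 8 toward parietal mesothelium. Over all genes 9.60% were called, 5.22% toward visceral and 4.39% toward parietal mesothelium. Brighter genes were called more often, 13.9% of those above the median signal of 7.73, where 10 of 34 members were called. The median difference was 0.03 over the 44 members and 0.00 over all genes. The 4 arrays separated by tissue for 17 members with visceral above and for 16 with parietal above, while 11 overlapped. Among all genes the arrays separated in 56.3%, with visceral above in 28.9% and parietal above in 27.4%, so separation alone says little with 2 arrays a tissue.

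**Figure D1:**
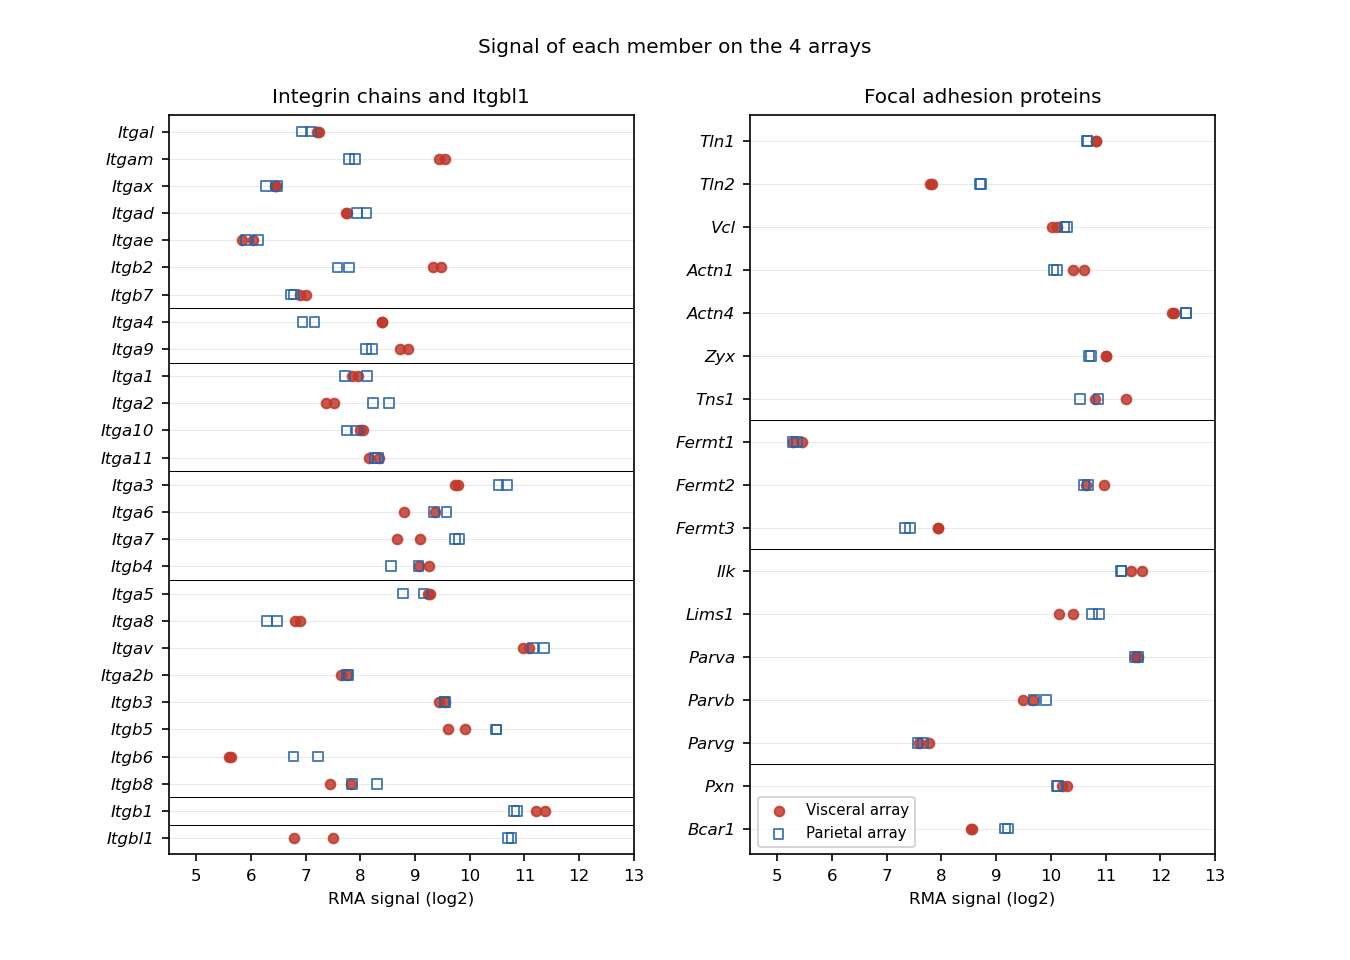
RMA signal on the log2 scale (x axis) of the 44 measured members (y axis), the 27 integrin genes on the left and the 17 focal adhesion proteins on the right, with lines between the groups described in the text. Filled circles are the 2 visceral and open squares the 2 parietal arrays; Itgbl1 lies near 7 on the visceral and near 10.7 on the parietal arrays, and most focal adhesion proteins lie close together. Signals of different genes come from different probes and are not comparable with each other.

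Markers of mesothelium were bright on the arrays of both tissues, which does not test which array is visceral and which parietal. All 15 mesothelial markers lay above the median signal on every array, with a mean level of 11.60 and 11.49 on the visceral and 12.50 and 12.42 on the parietal arrays, and 8 were called toward parietal and 1, Wt1 (0.84), toward visceral mesothelium. Markers of other cells differed as well. Of 19 macrophage and dendritic cell markers 17 were called higher in visceral mesothelium, with mean levels of 10.31 and 10.37 against 8.24 and 8.39, and all 20 skeletal muscle markers were called higher in parietal mesothelium, with mean levels of 7.09 and 7.08 against 11.76 and 12.17. Such differences in bulk tissue cannot tell fewer cells of a type from less RNA per cell.

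Of the 7 leukocyte integrin genes, those of the Mac-1 receptor stood out. Itgam and Itgb2, which encode its alpha and beta chains and let macrophages and neutrophils bind ICAM-1, fibrinogen and complement-coated particles, were called higher in visceral mesothelium, and the other 5 were not called. The call rate of 2 in 7 compares with 5.22% of all genes called in that direction. Itgam gave signals of 9.43 and 9.55 on the visceral arrays and 7.79 and 7.90 on the parietal arrays. Its difference was 1.64 (standard error 0.09), or 3.13-fold, with an adjusted p of 0.000343 from limma. Both visceral arrays lay well above both parietal ones. Itgb2, the beta chain common to all 4 receptors of this class, gave 9.34 and 9.48 against 7.59 and 7.79. Its difference was 1.72 (standard error 0.11), or 3.29-fold, with an adjusted p of 0.000477 from limma. The replicates of each tissue lay within 0.20 of each other, far less than the gap between tissues.

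The partners of the same beta chain did not follow Itgam. Itgal, the alpha chain of LFA-1 on most leukocytes, gave 7.21 and 7.25 on the visceral and 7.11 and 6.93 on the parietal arrays (difference 0.21, 95% interval -0.03 to 0.44). Itgax, the CD11c chain by which dendritic cells are often recognized, gave 6.47 and 6.44 against 6.47 and 6.28, and its interval was -0.17 to 0.32. Itgad, whose product CD11d is found on some tissue macrophages, gave 7.75 and 7.75 against 7.95 and 8.11. Its difference of -0.28 (95% interval -0.51 to -0.05) was not called, with an adjusted p of 0.118 from limma, and its second, dimmer probe gave -0.24. The intervals of Itgal, Itgax and Itgad all lie below that of Itgam, which was 1.42 to 1.87. These are intervals of single genes, not adjusted for their number.

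The beta7 pair of mucosal lymphocytes was dim and was not called. Itgb7 gave 6.904 and 7.002 on the visceral and 6.79 and 6.74 on the parietal arrays, and Itgae, the alpha chain that binds E-cadherin on intraepithelial lymphocytes, gave 5.85 and 6.04 against 5.92 and 6.13. Their differences were 0.19 and -0.08. Itgal, Itgax, Itgae and Itgb7 all had a mean signal below the median of all genes, where an array resolves differences poorly. Of the macrophage markers, Mrc1, Fcer1g and C1qc had the lowest adjusted p and differences of 2.69, 2.87 and 2.94. Flt3 and Zbtb46, which define dendritic cells, had a mean below the median signal and differed by 0.15 and 0.05 without being called. On the T and NK cell list 1 of 11 markers was called higher in visceral mesothelium, Cd3g (0.72), and 0 of 11 lay above the median signal. On the B cell list 4 of 8 were called higher in visceral mesothelium, led by Bank1 (1.99), and 7 of 8 lay below the median signal. Of 12 granulocyte and mast cell markers 5 were called in that direction and 9 lay below the median signal. Those called were the mast cell genes Cpa3 (4.63), Mcpt4, Tpsb2 and Kit and the granulocyte gene S100a9 (0.67). The granulocyte genes S100a8, Ngp, Ltf, Camp, Mpo and Elane and the mast cell gene Ms4a2 (-0.38) were not called. The part that these cells had in the values of Itgam and Itgb2 was not tested.

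Itgam, Itgax and Itgad lie next to each other on chromosome 7, which makes their promoters a useful pair to set side by side. The letters GAGGAA, on either strand, are a core to which the myeloid factor PU.1 is known to bind. The gene of PU.1, Spi1, is on the macrophage marker list and was called higher in visceral mesothelium (1.94). Its part in the value of Itgam was not tested. The 250 bases before the start of Itgam and of Itgax are given 5′ to 3′ on the gene's strand from RefSeq (GRCm38.p6), with GAGGAA or its reverse complement TTCCTC in capitals. Both lie on the plus strand, at chr7:128062390-128062639 for Itgam and chr7:128129300-128129549 for Itgax. Itgax was added for comparison after its values were seen.
Itgam: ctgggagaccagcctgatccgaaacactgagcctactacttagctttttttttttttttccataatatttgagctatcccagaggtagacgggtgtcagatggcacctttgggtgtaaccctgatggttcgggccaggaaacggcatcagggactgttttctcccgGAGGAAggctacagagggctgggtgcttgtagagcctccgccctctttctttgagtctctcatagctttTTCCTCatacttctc
Itgax: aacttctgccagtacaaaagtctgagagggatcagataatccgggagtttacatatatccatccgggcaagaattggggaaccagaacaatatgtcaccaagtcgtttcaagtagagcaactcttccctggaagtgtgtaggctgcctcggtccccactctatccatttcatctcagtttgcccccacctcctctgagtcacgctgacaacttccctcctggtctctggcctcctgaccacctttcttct
The Itgam window holds the letters once on each strand, beginning 84 and 15 bases before the start, and the Itgax window does not hold them. Only these letters were searched, so a window without them is not shown to lack sites for PU.1. The letters occur in 23.3% of 32851 promoter windows of the same length, and at least once for 25.9% of genes, against 11 of the 33 members with a window in the table. Itgb2, Itgal and Itgad had no window to search. Of the called members with a window, Itgam, Itga3 and Itgb6 held the letters. Itga4, Itga9, Itga2, Itgb5, Itgbl1 and Bcar1 did not. A match is a description of sequence, no binding was measured here, and a link of the letters to the calls was not tested.

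Both chains of the alpha4 and alpha9 subfamily were called higher in visceral mesothelium, a direction called in 5.22% of all genes. Itga4 pairs with beta1 to bind VCAM-1 and the CS1 stretch of fibronectin and with beta7 to bind MAdCAM-1, and it is made by leukocytes as well as by mesodermal cells. It gave 8.39 and 8.39 on the visceral and 7.16 and 6.95 on the parietal arrays. The difference was 1.34 (standard error 0.10), or 2.53-fold, with an adjusted p of 0.000917 from limma. Itga9, a receptor of tenascin-C, osteopontin and the EIIIA segment of fibronectin, gave 8.87 and 8.73 against 8.22 and 8.11. That is a 1.56-fold excess, or 0.64 on the log2 scale (standard error 0.09), and limma gave an adjusted p of 0.00955. The leukocyte marker Ptprc (1.97) and the macrophage and B cell markers above were called in the same direction, and their part in the values of Itga4 and Itga9 was not tested. The tissues did not overlap for either gene, but the fold of Itga9 was close to the limit. Its difference fell to 0.57 when visceral replicate 1 was left out and to 0.58 when parietal replicate 2 was, under the fold limit in both cases, with adjusted p of 0.0437 and 0.0359 from limma.

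Of the 16 chains particular to receptors for collagens, laminins and RGD ligands, without the shared Itgb1, 5 were called, all higher in parietal mesothelium, and 0 in visceral mesothelium. The background in that direction is 4.39% of all genes. The median difference of the 16 was -0.15 and their range -1.38 to 0.47. Itga8 was the highest of the 16, and Itgb1 also leaned toward visceral mesothelium. The parietal excess lay with single chains of each ligand class, which are described in turn.

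Among the 4 collagen receptors only Itga2 was called. Itga2, the collagen receptor of epithelia and platelets, gave 7.53 and 7.37 on the visceral and 8.53 and 8.24 on the parietal arrays. The difference was -0.93 (standard error 0.12), a 1.91-fold excess in parietal mesothelium, with an adjusted p of 0.00660 from limma. No visceral array reached a parietal one. Itga1, Itga10 and Itga11, receptors of basement membrane, cartilage and fibrillar collagen, differed by -0.02, 0.18 and -0.04, with intervals that all include 0. The widest of these, that of Itga1, ran from -0.39 to 0.34, its parietal arrays being 7.72 and 8.13.

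Among the 4 chains of laminin receptors Itga3 and Itga7 were called. Itga3, the alpha chain by which many epithelia hold on to laminins of the basement membrane, gave 9.79 and 9.74 on the visceral and 10.53 and 10.69 on the parietal arrays. Its difference was -0.84 (standard error 0.09), 1.79-fold, with an adjusted p of 0.00346 from limma. Itga7, the laminin receptor of skeletal and smooth muscle, gave 9.09 and 8.67 against 9.74 and 9.80. Its difference was -0.89 (standard error 0.15), 1.85-fold, with an adjusted p of 0.0146 from limma. Both genes were higher on each parietal array than on either visceral one. The visceral arrays of Itga7 lay 0.42 apart, and its difference ranged from -1.10 to -0.68 on leaving out each array in turn. Itga7 moved in the direction of the skeletal muscle markers, of which Myl1, Acta1 and Casq1 had the lowest adjusted p and differences of -7.28, -5.48 and -5.55. The part of muscle RNA in its value was not tested. Itga6 and Itgb4, which together form the receptor of hemidesmosomes, were not called. Itga6 gave 9.37 and 8.80 against 9.58 and 9.35, overlapping between tissues. Itgb4 gave 9.08 and 9.25 against 9.06 and 8.56, a difference of 0.36 (95% interval -0.09 to 0.80), and it was called, at 0.61 with an adjusted p of 0.0313 from limma, on leaving out parietal replicate 1.

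Among the 8 chains of RGD receptors the beta chains Itgb5 and Itgb6 were called. Itgb6 forms with alphav a receptor of epithelia that activates latent TGF-beta, and it gave 5.64 and 5.60 on the visceral and 6.78 and 7.23 on the parietal arrays. The difference was -1.38 (standard error 0.15), a 2.61-fold excess in parietal mesothelium, with an adjusted p of 0.00356 from limma. All 4 signals were below the median of all genes, so the fold is that of a dim probe. Itgb5, the beta chain of a vitronectin receptor, gave 9.61 and 9.91 against 10.48 and 10.49. Its difference was -0.73 (standard error 0.12), 1.66-fold, with an adjusted p of 0.0136 from limma. Without visceral replicate 1 the difference of Itgb5 was -0.58, under the fold limit, with an adjusted p of 0.0341 from limma. Of the mesothelial markers, which include epithelial genes, Msln, Bcam and Krt7 had the lowest adjusted p and were called higher in parietal mesothelium, by -2.14, -1.83 and -1.78. Wt1 was called the other way (0.84), and 6 of the 15 mesothelial markers were not called. The part of mesothelial RNA in the values of Itga2, Itga3 and Itgb6 was not tested.

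The partner of these beta chains leaned toward parietal mesothelium but was not called. Itgav gave 11.08 and 10.97 on the visceral and 11.36 and 11.16 on the parietal arrays (difference -0.23, 95% interval -0.49 to 0.02). Itgb8, a further alphav partner that presents latent TGF-beta, gave 7.46 and 7.83 against 8.30 and 7.85, a difference of -0.43 with an interval of -0.91 to 0.04. Itgb3, the beta chain of platelets and osteoclasts, was at 9.55 and 9.44 against 9.54 and 9.55. None of these was called. Itga2b, the platelet chain, differed by -0.07 (95% interval -0.29 to 0.14), while 2 of 6 platelet markers were called higher in visceral mesothelium, Pf4 (2.15) and Ppbp (2.53). The visceral arrays of Ppbp lay far apart, at 9.58 and 7.95, against 6.34 and 6.14 on the parietal arrays. Treml1 (0.57), Gp9 (0.48), Clec1b (0.18) and Gp5 (-0.12) were not called. Treml1 missed only the fold limit, with an adjusted p of 0.0284 from limma. Macrophages also make Pf4.

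The fibronectin receptor itself was not called. Itga5, which with beta1 is the classical receptor of fibronectin, gave 9.24 and 9.27 on the visceral and 9.16 and 8.78 on the parietal arrays, a difference of 0.29 with an interval of -0.05 to 0.63. Itga8, a receptor of nephronectin in mesenchyme, gave 6.90 and 6.81 against 6.47 and 6.30. Its difference of 0.47 had an adjusted p of 0.0312 from limma but stayed under the fold limit. Itgb1, the partner of all but a few alpha chains outside leukocytes, gave 11.37 and 11.21 against 10.86 and 10.81. Its difference was 0.45 (standard error 0.09), 1.37-fold, with an adjusted p of 0.0300 from limma, also under the limit. For both genes the visceral arrays lay above the parietal ones.

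Itgbl1 had the largest difference of all members. It encodes a secreted protein with repeats like the stalk of a beta integrin, but is known to lack the membrane anchor and the ligand-binding domain, so it is no chain of a receptor. Its signal was 6.79 and 7.50 on the visceral and 10.77 and 10.70 on the parietal arrays. The difference was -3.59 (standard error 0.23), a 12-fold excess in parietal mesothelium, with an adjusted p of 0.000488 from limma. The visceral arrays lay 0.71 apart, the widest gap between replicates among the members, and leaving out visceral replicate 2 gave a difference of -3.95, leaving out visceral replicate 1 one of -3.23. Both visceral signals were below the median of all genes and both parietal ones far above it.

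**Figure D2:**
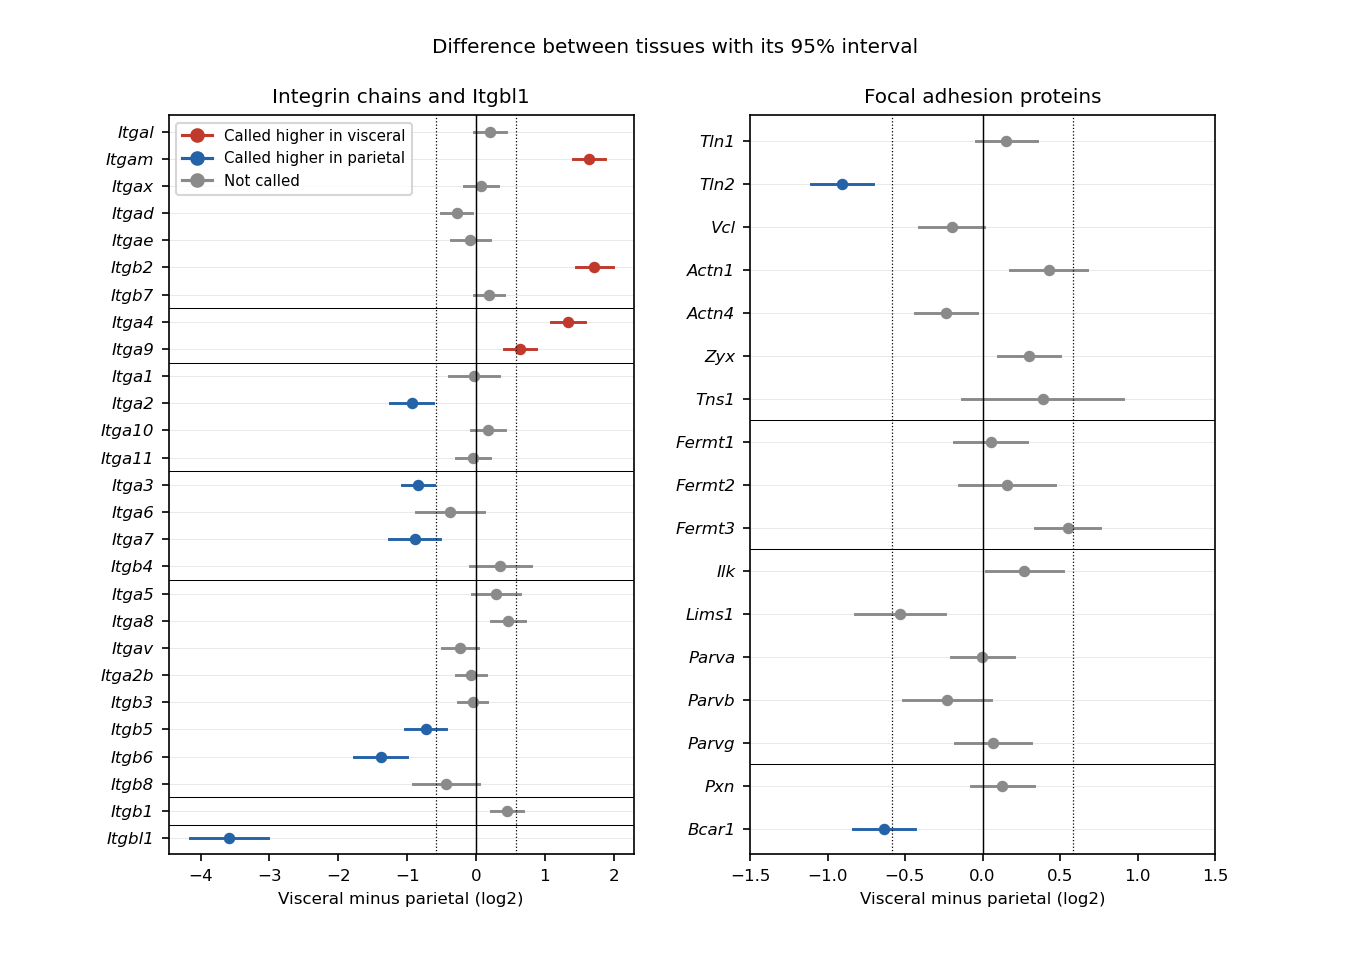
Difference of the 44 members, visceral minus parietal mesothelium on the log2 scale (x axis), points with the 95% interval from limma, for the integrin genes on the left and the focal adhesion proteins on the right; the x axes differ in range. Red marks genes called higher in visceral, blue those called higher in parietal mesothelium, grey those not called, and dotted lines the fold limit of 1.5; Itgbl1 lies at -3.59, and Tln2 and Bcar1 are the called proteins on the right.

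Read as receptors, few pairs moved together. Of 24 known pairs of an alpha and a beta chain, 1 had both chains called in the same direction, Mac-1 (Itgam with Itgb2). In 11 pairs 1 chain was called, in 12 neither, and in 0 were the chains called in opposite directions. Of the 12 alpha partners of Itgb1, Itga4 and Itga9 (2 chains) were called toward visceral and Itga2, Itga3 and Itga7 (3 chains) toward parietal mesothelium. Of the 5 beta partners of Itgav, 2 were called, Itgb5 and Itgb6, both higher in parietal mesothelium. By the same rule 5.22% of all genes were called toward visceral and 4.39% toward parietal mesothelium. The pair counts turn on the fold limit, which Itgb1 missed. By adjusted p alone, which passed in 14.2% of all genes, 4 pairs had both chains called the same way and 3 opposite ways, the latter being Itgb1 with Itga2, Itga3 and Itga7. Pairs share chains, so these counts are not independent of each other, and RNA does not show which receptors were assembled.

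**Figure D3:**
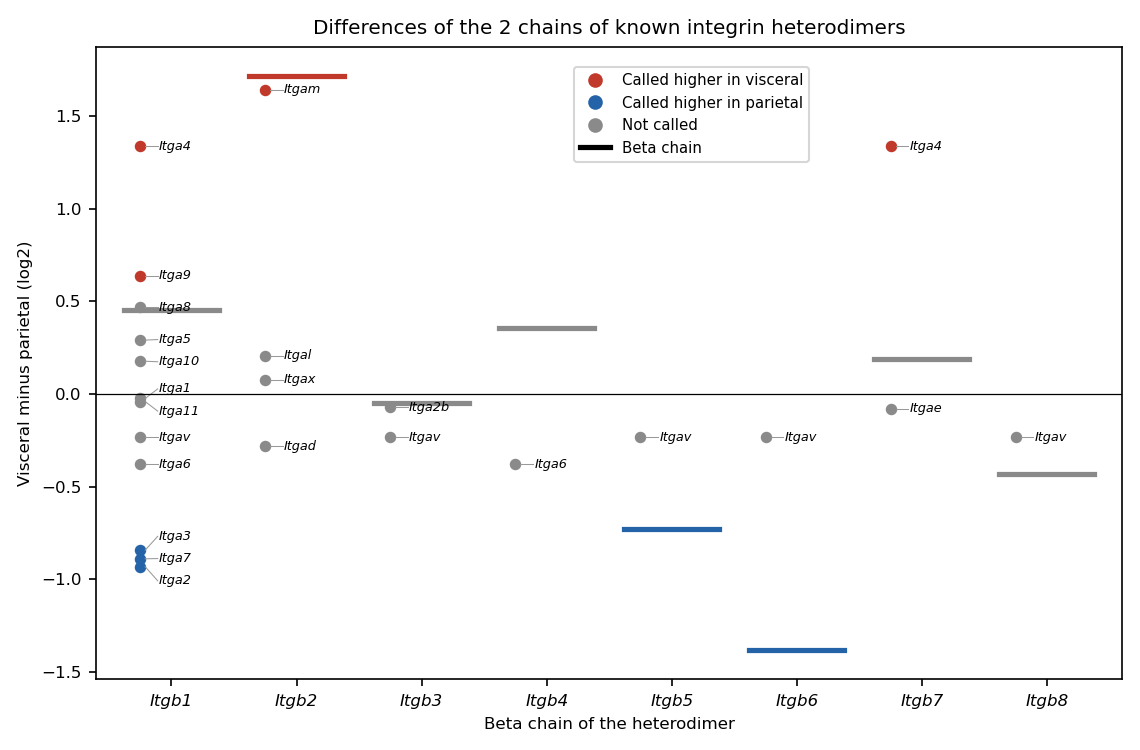
Difference, visceral minus parietal mesothelium on the log2 scale (y axis), of the alpha chains (points, named) that pair with each beta chain (x axis), whose own difference is the horizontal bar. Red marks chains called higher in visceral, blue those called higher in parietal mesothelium and grey those not called; under Itgb1 the alpha chains spread from -0.93 (Itga2) to 1.34 (Itga4), and only Itgam lies near the bar of Itgb2.

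Of the 17 measured focal adhesion proteins 2 were called, Tln2 and Bcar1, both higher in parietal mesothelium, or 11.8% against 9.60% of all genes. Their median difference was 0.07 and their range -0.91 to 0.55.

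The talins divided. Tln1, the talin of most cells, gave 10.82 and 10.82 on the visceral and 10.67 and 10.66 on the parietal arrays (difference 0.15, 95% interval -0.04 to 0.35). Tln2, the form that prevails in striated muscle and brain, gave 7.79 and 7.83 against 8.71 and 8.73. Its difference was -0.91 (standard error 0.08), 1.88-fold, with an adjusted p of 0.00149 from limma. The intervals of the talins do not meet, that of Tln2 being -1.11 to -0.71. The part of muscle RNA in the signal of Tln2 was not tested either.

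The other links to actin were not called. Vcl, encoding vinculin, which binds talin under tension, gave 10.12 and 10.02 on the visceral and 10.25 and 10.29 on the parietal arrays (difference -0.20, 95% interval -0.41 to 0.01). Zyx, encoding zyxin, which gathers at stretched stress fibres, gave 11.01 and 11.02 against 10.69 and 10.73 (difference 0.30, adjusted p = 0.0642 from limma). The non-muscle alpha-actinins, which crosslink actin, leaned in opposite directions. Actn1 gave 10.61 and 10.41 against 10.11 and 10.05, a difference of 0.43 with an adjusted p of 0.0437 from limma and a fold of 1.35, under the limit. Actn4 gave 12.26 and 12.21 against 12.47 and 12.47, a difference of -0.23 with an adjusted p of 0.125 from limma. Tns1, encoding a tensin of fibrillar adhesions, had overlapping arrays at 10.81 and 11.36 against 10.53 and 10.87 for the probe used. Its 6 probes all leaned toward visceral mesothelium, with differences from 0.08 to 0.64, and none passed over all probes, the lowest adjusted p from limma being 0.0516. With the replicate number as a block the adjusted p of the probe used was 0.0450 from limma, still at a fold of 1.31.

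The kindlins and the ILK complex held no called gene. Fermt3, the kindlin of blood cells, gave 7.93 and 7.93 on the visceral and 7.34 and 7.43 on the parietal arrays. Its difference was 0.55 (standard error 0.08), a fold of 1.46 just under the limit, although limma gave an adjusted p of 0.0106, and it was called at 0.60 without parietal replicate 2. Fermt2, the kindlin of most adherent cells, differed by 0.16 (95% interval -0.15 to 0.47), and Fermt1, that of epithelia, by 0.05 at signals of 5.28 to 5.45. Ilk, the pseudokinase at the centre of the complex, gave 11.66 and 11.46 against 11.29 and 11.29 (difference 0.27, adjusted p = 0.152 from limma). Lims1, encoding its partner PINCH-1, gave 10.41 and 10.15 against 10.75 and 10.87. The difference of Lims1 was -0.53 with an adjusted p of 0.0370 from limma and a fold of 1.45, and it was called at -0.67 without visceral replicate 1. Parva, the widespread parvin, differed by 0.00 (95% interval -0.20 to 0.20), Parvb by -0.23 and Parvg, the parvin of blood cells, by 0.07 (95% interval -0.18 to 0.32).

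Of the signalling adaptors, Bcar1 was called. It encodes p130Cas, a scaffold that is phosphorylated when the cell is stretched or spreads, and gave 8.54 and 8.57 on the visceral and 9.16 and 9.21 on the parietal arrays. The difference was -0.63 (standard error 0.08), 1.55-fold, with an adjusted p of 0.00556 from limma. The tissues did not overlap. Pxn, encoding paxillin, to which many of these proteins dock, gave 10.29 and 10.21 against 10.12 and 10.13 (difference 0.13, 95% interval -0.08 to 0.33).

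A wider list held further proteins of adhesion sites. Of its 47 measured genes, 5 had a call toward visceral and 7 toward parietal mesothelium (25.5% against 9.60% of all genes), with a median difference of 0.10. The muscle alpha-actinins Actn2 and Actn3, which anchor actin at the Z-disc, were higher in parietal mesothelium by -3.82 and -3.19 (adjusted p = 5.5e-05 and 0.000439 from limma). Actn3 is also one of the skeletal muscle markers. Kank1, which surrounds adhesions and couples them to microtubules, was higher there too, by -0.89. In visceral mesothelium the scaffold Sorbs2 was higher by 2.14, the Src-family kinase Fyn by 1.38 and leupaxin, Lpxn, a paxillin relative found mainly in blood cells, by 1.16. Genes named next were picked after their values were seen. Itgb1bp2, encoding melusin, which binds beta1 in striated muscle, gave 7.51 and 7.19 against 8.33 and 8.35, a difference of -0.99. Apbb1ip and Rap1b, which recruit talin to integrins in blood cells and platelets, were called higher in visceral mesothelium, by 0.80 and 0.63. The part of muscle and blood cell RNA in these values was not tested.

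Ligands of the integrins were called in both directions, as their receptors were. Of 36 measured ligand genes 5 had a call toward visceral and 10 toward parietal mesothelium (41.7% against 9.60% of all genes), with a median difference of -0.07. Among the integrin chains 9 of 26 were called (34.6%), and no test of the ligands against the receptors was made. Fn1, encoding fibronectin, gave 13.24 and 12.94 on the visceral and 11.35 and 11.29 on the parietal arrays, 3.41-fold higher in visceral mesothelium, with a difference of 1.77 and an adjusted p of 0.000613 from limma. Its receptor chains Itga4 (1.34) and Itga9 (0.64) were called in the same direction, while Itga5 (0.29) and Itgav (-0.23) were not called. Vcam1, the cell-surface ligand of alpha4beta1, was called higher in visceral mesothelium at 8.10 and 8.04 against 7.25 and 7.06, a difference of 0.92.

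Laminin chains went both ways. Lama5, a main laminin chain of epithelial basement membranes and a ligand of alpha3beta1, was called higher in parietal mesothelium by -0.92, in the direction of Itga3. Lama2, the chain of muscle basement membrane and a ligand of alpha7beta1, was called higher in visceral mesothelium by 1.29, opposite to Itga7. Egfl6, a matrix ligand of alpha8beta1, was called higher in visceral mesothelium by 2.73, and Thbs2, a thrombospondin, in parietal mesothelium by -2.93. Icam1, the ligand of Mac-1 and LFA-1 (picked after its values were seen), was called higher in parietal mesothelium, at 8.56 and 8.79 against 9.56 and 9.63, a difference of -0.92. It thus lay opposite to Itgam and Itgb2. Also picked afterwards was Ltbp1, which tethers the latent TGF-beta that alphavbeta6 activates. Its difference was -1.06, in the direction of Itgb6. The TGF-beta genes did not share one direction. Tgfb3 was called higher in visceral mesothelium (0.77), Tgfb1 was at 0.56 with an adjusted p of 0.00943 from limma but under the fold limit, and Tgfb2 was at -0.32 and not called.

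**Figure D4:**
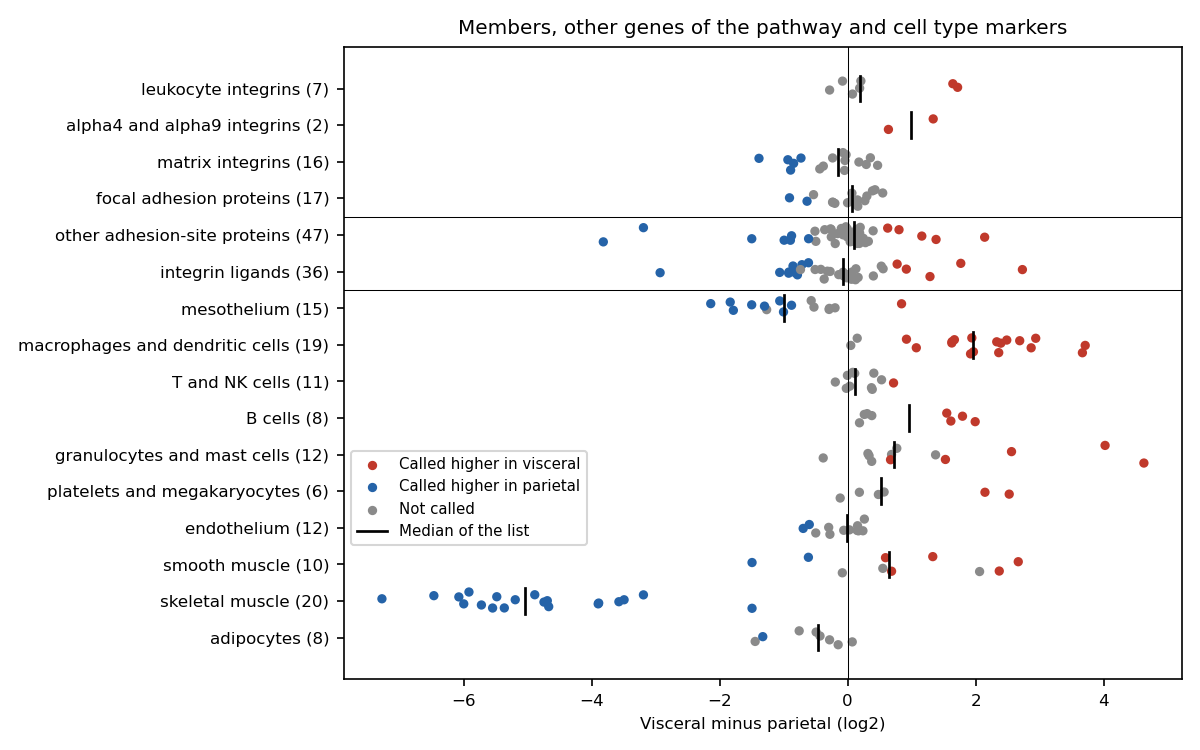
Difference of single genes, visceral minus parietal mesothelium on the log2 scale (x axis), by list (y axis, with the number of genes measured): members at the top, further adhesion genes and ligands in the middle, cell type markers below. Red marks genes called higher in visceral, blue those called higher in parietal mesothelium, grey those not called, and black bars the median; skeletal muscle markers have a median of -5.04 and macrophage and dendritic cell markers one of 1.97, against -0.15 for the 16 matrix integrins and 0.07 for the focal adhesion proteins. The vertical scatter within a list has no meaning.

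Of the remaining marker lists, only that of smooth muscle held calls in both directions. Of 12 endothelial markers 2 were called higher in parietal mesothelium, Esam (-0.69) and Cdh5 (-0.60), and 10 were not called. Of 10 smooth muscle markers 5 had a call toward visceral, led by Myh11 (2.67), and 2 toward parietal mesothelium, Des (-1.49) and Mylk (-0.61). Des is also one of the skeletal muscle markers. Of 8 adipocyte markers 1, Plin4 (-1.33), was called, toward parietal mesothelium. Parietal replicate 1 stood apart in this list, with a mean of 8.12 against 7.47 on parietal replicate 2 and 7.11 and 7.28 on the visceral arrays. Its Retn signal was 9.46 against 7.46 on replicate 2, and its Adipoq signal 7.50 against 5.96. Leaving out that array changed the call of 1 member, Itgb4. The mean level of the smooth muscle list was 9.73 and 9.17 on the visceral and 8.59 and 8.70 on the parietal arrays, and the part of these cells in the values of Itga7, Itga8 and Actn1 was not tested.

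The calls rest on limma, which borrows the spread from all genes. The test named in the study's methods is a one-way ANOVA, which with 2 tissues is a t-test. Run here on the probe read for each gene, it called 0 of 44 members and 0 of 19938 genes after Benjamini-Hochberg adjustment. The study reports probes that passed its limits of adjusted p and fold, and why this rerun differs was not examined. At an unadjusted p under 0.05 with the same fold limit the t-test called 11 members, all but Itga7 of the 12. By that rule 7.93% of all genes were called.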

How the data were processed

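RNA of visceral and parietal mesothelium was measured on 4 one-colour arrays (Mouse Gene 1.0 ST, Affymetrix), 2 for either tissue. The deposited values are log2 signals that the authors made with RMA, a background correction, quantile normalization and probe-set summary, per their methods in Partek 6.6. RMA forces the arrays to a common distribution, so a shift of most genes would not be seen, and differences of dim probes are compressed. The array library version is not given in the sources used here.

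Of 35556 probes, 21789 carried 1 symbol in a platform annotation, 1621 several and 12146 none. A probe with several symbols was not used, including 3 that list Itgam. Symbols were matched by gene identifier to RefSeq (GRCm38.p6) for 21698 probes, and none changed. Each of 19938 genes was read from the probe with the highest mean, and limma 3.58.1 in R 4.3.3 was fitted to all genes and all 4 arrays without a block, tested beforehand on simulated data. A call needs an adjusted p under 0.05 and a fold of 1.5. Standard errors and 95% intervals come from the same fit. Depth has no meaning for arrays, and their number limits the precision. Array batches were not analysed here.

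Values are given on every array for called members, chains that pair with one, and most others, the rest by their differences or ranges. Of the wider pathway and ligand lists the called genes of lowest adjusted p are named (6 at most, and 3 at most from marker lists), others being named as picked later or for their role. Flt3, Zbtb46, Wt1, Spi1, Kit, S100a8, S100a9, Ngp, Ltf, Camp, Mpo, Elane, Ms4a2, Treml1, Clec1b, Gp9 and Gp5 were named for their role. Des and Mylk were named as the smooth muscle markers called toward parietal mesothelium. The members and lists were chosen with earlier results of these data known. The alternatives were other tests, thresholds, normalizations, filters on dim genes, probe rules, the replicate number as a block, and each array left out. Protein sequences were not used here.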

Additional observations from a re-analysis of the deposited data

How the results depend on the processing

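The 12 calls among members were the same under limma-trend, a robust prior, 3 further normalizations, the mean of probes, adjustment over all probes and the replicate block. With the replicate block, which pairs arrays by the number in the labels, 12 members were called, 4 toward visceral and 8 toward parietal mesothelium. Over all genes the block called 2008 against 1915. The labels do not say that a number marks a shared animal; the deviations of replicate 1 from the tissue means correlated over genes at 0.356, which with 2 pairs does not settle it. The methods' t-test after adjustment called 0 members (0 toward visceral, 0 toward parietal mesothelium) and 0 of 19938 genes. Without a fold minimum 8 members were called higher in visceral mesothelium and 9 in parietal, against 14.2% of all genes in either direction. With a fold of 2, and equally with a test against a fold of 1.5, 5 members were called. These were 3 toward visceral (Itgam, Itgb2, Itga4) and 2 toward parietal mesothelium (Itgb6, Itgbl1). Of all genes 4.91% were called with the fold of 2 and 3.63% with the test. With genes above the median signal alone Itga4 and Itgb6 were not tested. Then 10 of 34 members were called, against 14.1% of the genes tested. On leaving out each array 11 to 13 members were called, 3 to 5 toward visceral and 8 toward parietal mesothelium; the tissue left with 1 array was then assumed to vary like the other.

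The sign turned only for members that were not called. Leaving out each array, Itgax ranged from -0.0226 to 0.18, Itgae from -0.184 to 0.0251, Itga1 from -0.23 to 0.18, Itga11 from -0.138 to 0.0559, Itgb3 from -0.102 to 0.00646, Fermt1 from -0.03 to 0.13, Parva from -0.0261 to 0.0246 and Parvg from -0.0233 to 0.16. Parva was at 0.0248 after quantile normalization. No scaling moved the median of all genes by more than 0.02. Signals near the background limit what can be said of the 10 members below the median signal.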
